A study of Mus musculus with 8 samples.

Results

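Translation initiation and elongation factors were examined in effector CD8+ T cells that had lost the transcriptional repressor Blimp-1. The factors were taken as every gene whose symbol in the array's annotation starts with Eif or Eef and a digit, without the sex-linked pair Eif2s3x and Eif2s3y. This gave 54 genes of 14776 named on the array, read by 82 probes, and each gene was represented by its brightest probe over all arrays. The CKO group was Blimp-1flox/flox x GranzymeB-cre+ mice, in which Cre is driven by granzyme B and so acts in T cells once they are activated. The WT group was wildtype littermates. Each group held 4 sorted samples on 1 array each. Both were infected with LCMV-Armstrong, a virus strain that causes an acute infection, and spleen CD8+ cells that bound tetramers of the viral glycoprotein and nucleoprotein peptides were sorted at day 8. The labels give no age or sex and do not say whether the 4 independent samples of a group were 4 animals, so a p-value reflects only how much these samples vary, part of which may be technical.

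Protein synthesis starts when the small ribosomal subunit, held open by eIF1, eIF1A and eIF3, receives the initiator tRNA from eIF2. The cap-binding complex eIF4F then brings the mRNA. The factor eIF5 works with eIF2 in start codon recognition, eIF5B acts in subunit joining, and eEF1 and eEF2 carry out elongation. The eIF4E-binding proteins hold back eIF4E, and the eIF2 kinases shut down eIF2 by blocking its exchange factor eIF2B under stress. Activated T cells raise protein synthesis strongly as they divide and make effector proteins.

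Values are log2 signals as deposited, the lowest at 5.33 and the highest at 15.15. Signals of different probes are not set against each other. The arrays correlated at 0.972 to 0.993 within groups and at 0.958 to 0.981 between groups. The 18S control probe was dimmer in CKO2 (10.80) and WT2 (11.20) than in the other 6 samples, which lay at 12.47 to 12.99. The 2 Prdm1 probes, which read the gene that encodes Blimp-1, moved in opposite directions, by 3.20 and -1.28, so they do not check the labels without the probe positions, which were not used here. The T cell markers Cd8b1, Cd3d, Cd3e and Cd3g were bright in every sample, and the 3 CD4 T cell markers measured were below the filter on dim probes. The 5 T cell markers measured, with Cd2, summed on the linear scale to 49911 to 57388 in CKO samples, against 59555 to 64419 in WT samples. Of these 5, Cd2 fell by 0.54 (limma adjusted p = 0.00857) and 4 did not pass, with Cd8b1 at -0.33 and Cd3e at -0.38 (adjusted p = 0.0898 and 0.0982). Summed myeloid markers (6 of 8 measured) ran from 566 to 2116 in CKO samples and from 493 to 1081 in WT samples, and summed erythroid markers (2 of 4) from 164 to 13494 in CKO samples and from 4468 to 13436 in WT samples. Summed dendritic cell markers (5 of 5) ran from 985 to 1361 in CKO samples and from 1129 to 2953 in WT samples, NK cell markers (5 of 5) from 880 to 1504 in CKO samples and from 1158 to 2163 in WT samples, and B cell markers (6 of 7) from 557 to 644 in CKO samples and from 591 to 888 in WT samples. The dendritic cell sum rested mostly on Itgax, and the NK cell sum mostly on Eomes and Klrb1c. Whether these signals came from other cells or from the sorted T cells themselves was not tested. No marker of these 5 other cell types passed by limma, 5 were lower at an unadjusted p under 0.05, and the negative differences among them included Klrb1c of NK cells at -1.96, Itgax of dendritic cells at -1.21 and Cd79a of B cells at -0.54 (adjusted p = 0.0885, 0.0680 and 0.123). Of the same lists, Eomes of NK cells was at 0.19, Zbtb46 of dendritic cells at 0.08 and Cd22 of B cells at 0.11. Differences above 0 were 1 of 2 NK cell, 1 of 4 dendritic cell, 1 of 4 B cell, 4 of 4 myeloid and 0 of 2 erythroid markers tested. Hba-a1, a haemoglobin gene of red cells, was at 13.68, 8.29, 6.60 and 7.67 in CKO1 to CKO4, against 13.28, 13.68, 12.33 and 12.08 in WT1 to WT4. The myeloid marker Lyz2 was at 6.56, 6.98, 8.47 and 10.30 in CKO1 to CKO4, against 6.45, 6.73, 8.87 and 8.75 in WT1 to WT4. The part of these other cells in the results below was not tested, and in bulk samples fewer cells of a type and less RNA per cell cannot be told apart.

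Most translation factors differed little between the genotypes, and those whose brightest probe passed the test were higher in CKO cells. Further probes of Eif4a1 and Eif4e3 also passed, the first as higher and the second as lower. Of the 54 genes, 50 had a probe bright enough to be tested. Eef1a2, the muscle and nerve form of eEF1A, Eif2ak4, a kinase that senses amino acid shortage, Eef2k, the kinase that inhibits eEF2, and Eif5b, the GTPase of subunit joining, were too dim. Eif1a, Eef1b2 and Eif5a rose, none fell and 47 did not pass (limma, adjusted p threshold 0.05 over all 11991 probes tested). Those 3 genes are 6% of the factors tested, against a background of 7.77% of all 8095 genes called, 4.73% higher and 3.04% lower, so the count lies near the background. By the unadjusted p under 0.05, 19 factors were higher and 2 lower, against backgrounds of 12.4% and 10.9% of all genes. A linear model without moderation called the same number as limma, 3 higher and 0 lower. Without CKO3, CKO4, WT1 or WT3, 1 factor, Eif1a, was called in place of 3, against 3.59%, 4.83%, 4.51% and 5.14% of all genes.

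Samples that carried the same number deviated together, so the comparison was also fitted with the number as a block. In that fit 7 factors were higher and 1 was lower, 16% of those tested, against a background of 12.6% of all genes, 6.87% higher and 5.69% lower. The additional genes were Eif4a1, Eif2ak2, Eif3b and Eif2s2, which were higher, and Eif4ebp2, which was lower. In samples numbered 3 and 4 alone 6 of 50 factors, 5 higher and 1 lower, were called, against a background of 11.4% of all genes. In those numbered 1 and 2 alone 0 were called by limma, against 0.235% of all genes, with 5 factors at an unadjusted p under 0.05.

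The shift of the family as a whole was small. Its median difference, CKO minus WT, was 0.16 log2 over the 50 genes tested, or 1.11-fold, against -0.01 over all 8095 genes. The difference was above 0 in 35 of the 50 factors, or 70%, against 47.3% of all genes. In 13 factors every CKO sample lay above every WT sample, which is 26% of those tested, against a background of 9.19% of genes. In 0 factors did every CKO sample lie below every WT sample, where the background was 6.49%. The background genes were not matched to the factors in brightness. Under a filter at the 75th percentile of brightness, 11.9% of all genes were called, against 7.77%. Relative to the WT mean of each gene, the median factor was at 0.19, 0.10, 0.14 and 0.14 log2 in CKO1 to CKO4, and at 0.02, -0.01, -0.00 and 0.04 in WT1 to WT4. The groups did not overlap in this median, but no test was run over the family.

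**Figure D1:**
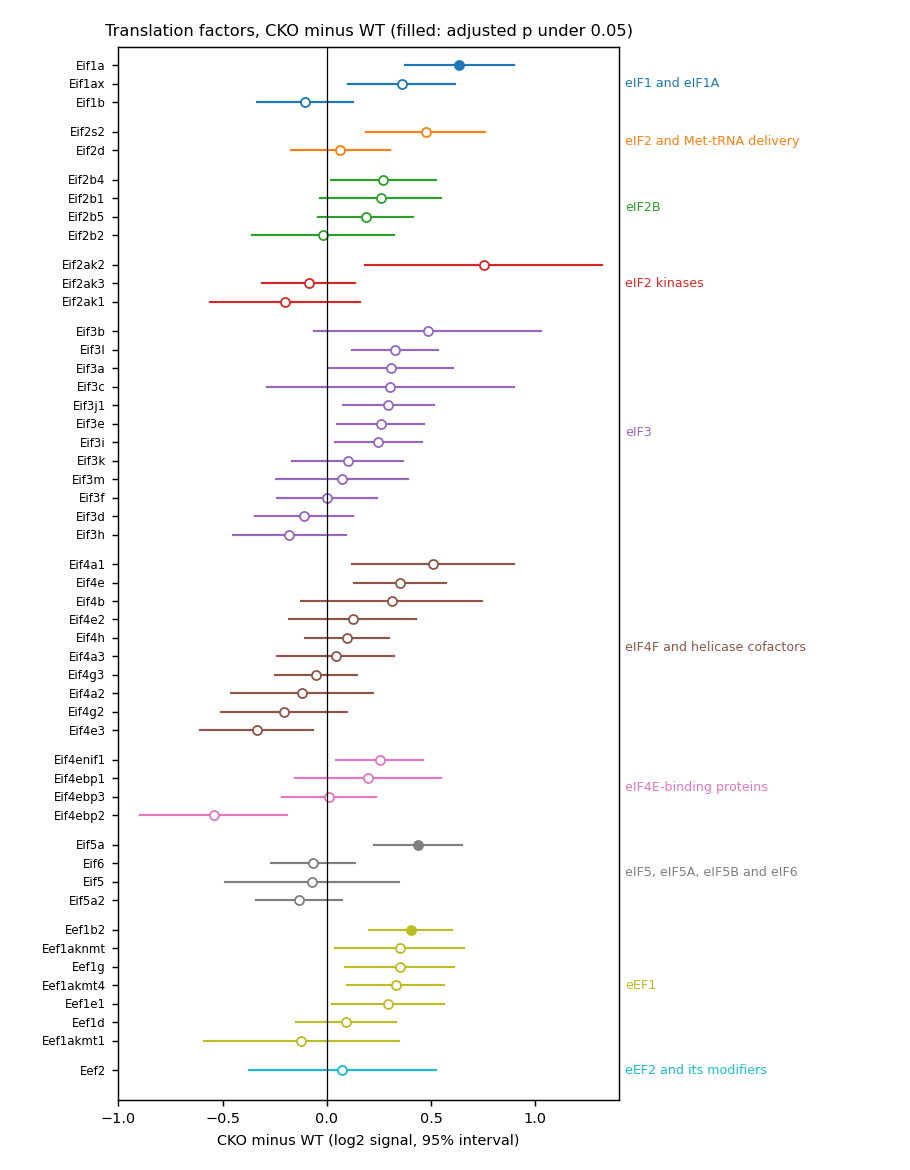
Difference between CKO and WT in log2 signal for the 50 factors tested, one row per gene, sorted within each complex, with the 95% interval of limma; filled points are the 3 genes with adjusted p under 0.05 (Eif1a, Eif5a and Eef1b2). Most points lie between 0 and 0.5, and the lowest is Eif4ebp2 at -0.54.

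**Figure D2:**
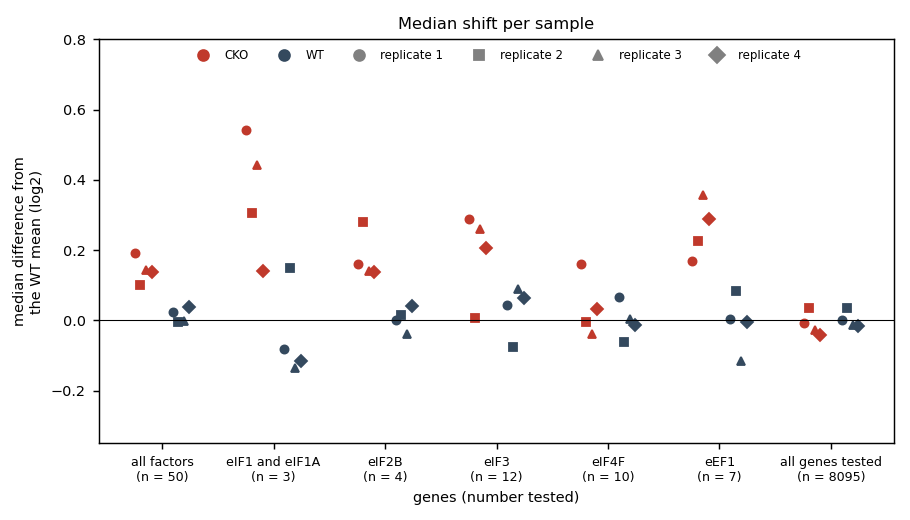
Median difference from the WT mean (log2, vertical axis) for each sample. Medians are over all factors tested, over 5 groups of factors and over all 8095 genes tested. The eEF1 group also holds Eef1e1 and methyltransferases of eEF1A. Red is CKO, dark grey is WT, and marker shapes give the replicate number. The CKO medians of all factors lie at 0.10 to 0.19 and the WT medians at -0.01 to 0.04. CKO and WT do not overlap in eIF2B and eEF1 either, and they overlap in the eIF1 and eIF1A group, in eIF3 and in eIF4F.

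Promoter windows of RefSeq on the GRCm38.p6 assembly, of 300 bases each and lying mostly before the annotated start, were available for 42 of the 54 genes. Letters were searched on both strands: CACGTG, the E-box bound by Myc-type factors, which are known regulators of translation genes; AGNGAAAG, a core of Blimp-1 type sites; and TGATGNAAT, bound by Atf4 with C/EBP partners. The E-box was present in a window of 13 of the 42 genes, or 31%, against 11.9% of the 6655 tested genes with a window and 8.09% of all 27025 genes given. Counted over windows, since some genes have several, the shares were 26.3% and 9.94% of those of tested genes. The Blimp-1 type core was present in 4 of the 42 genes, or 9.52%, against 9.23% of tested genes. The Atf4 element was present in 0 of the 42 genes, against 0.541% of tested genes. The tested factors with an E-box (12 genes) had a median difference of 0.20 log2, against 0.22 for the 26 without, and each set held 1 called gene. The windows of Eef1b2 and Eif5a are shown because these genes rose. Eif1a also rose but had no window available. Those of Eif4a1 and Eif4e are shown because these genes encode the helicase and the cap-binding subunit of eIF4F and hold the E-box. Where a gene had several windows, the window with the most E-boxes is shown. The E-box was present in 3 of 6 Eif5a windows and 1 of 2 Eif4e windows. Capitals mark CACGTG, and Eef1b2 has none. All are written 5′ to 3′ on the gene's strand. The Eef1b2 window is chr1:63176581-63176880 on the plus strand, that of Eif5a chr11:69921337-69921636 on the minus strand and 1 of 6 given, that of Eif4a1 chr11:69672374-69672673 on the minus strand, and that of Eif4e chr3:138527018-138527317 on the plus strand and 1 of 2 given.
Eef1b2: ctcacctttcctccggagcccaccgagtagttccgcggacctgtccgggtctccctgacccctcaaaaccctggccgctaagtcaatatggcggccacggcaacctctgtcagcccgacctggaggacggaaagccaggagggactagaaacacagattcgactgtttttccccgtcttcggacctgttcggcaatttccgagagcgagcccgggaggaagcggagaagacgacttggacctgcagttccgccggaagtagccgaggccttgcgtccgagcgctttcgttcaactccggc
Eif5a: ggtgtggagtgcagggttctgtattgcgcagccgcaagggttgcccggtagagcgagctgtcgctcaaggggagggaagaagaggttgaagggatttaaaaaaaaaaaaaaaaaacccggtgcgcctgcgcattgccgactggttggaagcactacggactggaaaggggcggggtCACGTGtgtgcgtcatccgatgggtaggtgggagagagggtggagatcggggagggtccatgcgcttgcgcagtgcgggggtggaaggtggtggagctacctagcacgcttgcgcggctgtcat
Eif4a1: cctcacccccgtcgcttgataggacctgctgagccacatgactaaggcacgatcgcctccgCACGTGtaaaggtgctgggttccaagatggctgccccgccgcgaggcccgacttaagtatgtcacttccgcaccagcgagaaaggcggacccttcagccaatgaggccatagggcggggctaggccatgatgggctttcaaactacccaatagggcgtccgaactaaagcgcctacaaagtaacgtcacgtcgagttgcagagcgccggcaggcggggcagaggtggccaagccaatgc
Eif4e: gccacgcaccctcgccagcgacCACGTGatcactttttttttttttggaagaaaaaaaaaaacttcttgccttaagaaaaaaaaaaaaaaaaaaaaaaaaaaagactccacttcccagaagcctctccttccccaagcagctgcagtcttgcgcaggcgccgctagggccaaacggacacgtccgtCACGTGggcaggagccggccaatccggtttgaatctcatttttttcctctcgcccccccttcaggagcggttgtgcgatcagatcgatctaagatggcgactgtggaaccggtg

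Among the scanning factors eIF1 and eIF1A, Eif1a rose and the other members did not pass. Eif1a encodes a form of eIF1A, the small factor that keeps the decoding site open while the start codon is sought. Its signal was 9.91, 9.63, 9.76 and 9.82 in CKO1 to CKO4, against 9.06, 9.21, 9.38 and 8.92 in WT1 to WT4. Every CKO sample was above every WT sample. The means were 9.78 ± 0.12 in CKO and 9.14 ± 0.20 in WT (SD, n = 4 each), a difference of 0.64 (SE 0.12) or 1.55-fold with a limma adjusted p = 0.0110. The call held without any 1 sample, at 0.56 to 0.72, and was lost in samples 1 and 2 alone (adjusted p = 0.325) and without CKO1 and WT1 (0.0913). Eif1ax, the X-linked gene of the same factor, differed by 0.36 (SE 0.12, adjusted p = 0.101), with values of 7.24 to 7.64 in CKO and 6.96 to 7.25 in WT that overlapped between CKO4 and WT2. The 2 genes are close in sequence, and whether a probe reads both was not tested. Eif1b, a close relative of eIF1, which guards start codon choice, was at 11.44 ± 0.07 in CKO and 11.55 ± 0.17 in WT, a difference of -0.11 (adjusted p = 0.641).

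Of eIF2, the carrier of the initiator tRNA, the beta subunit gene Eif2s2 was analysed here, and it did not pass. Eif2s2 was at 9.08, 9.07, 9.03 and 8.85 in CKO1 to CKO4, against 8.52, 8.59, 8.21 and 8.80 in WT1 to WT4. The groups did not overlap, with WT4 close below CKO4. The difference of 0.48 (SE 0.13) just missed the threshold (limma adjusted p = 0.0556), but the gene was called as higher in the blocked fit (adjusted p = 0.0466) and without WT4 (0.0323). Another Eif2s2 probe differed by 0.22 without passing (SE 0.17, limma adjusted p = 0.536). On that probe the groups overlapped, with WT4 at 7.27 above every CKO sample. Eif2d, which can deliver tRNA without eIF2, differed by 0.06 (adjusted p = 0.803).

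None of the 4 measured eIF2B subunits passed. eIF2B reloads eIF2 with GTP and is the point at which stress slows initiation. Eif2b4, its delta subunit, was at 10.18 ± 0.08 in CKO and 9.91 ± 0.20 in WT, a difference of 0.27 (SE 0.11, adjusted p = 0.205). Eif2b1, the alpha subunit, differed by 0.26 and the catalytic subunit Eif2b5 by 0.19, with adjusted p of 0.304 and 0.352, while Eif2b2 differed by -0.02 (0.966). Eif2b5 was at 10.35 in CKO2, against 10.04 for the nearest CKO sample.

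Among the eIF2 kinases, Eif2ak2 separated the CKO samples into low and high values. It encodes PKR, which is activated by double-stranded RNA and is itself induced by interferon. Eif2ak2 was at 8.70, 9.12, 9.90 and 9.93 in CKO1 to CKO4, against 8.55, 8.62, 8.52 and 8.94 in WT1 to WT4. CKO3 and CKO4 stood well above all WT samples, whereas CKO1 lay within the WT range. The difference of 0.75 (SE 0.26) did not pass (limma adjusted p = 0.118) but was called in the blocked fit (adjusted p = 0.0320), without CKO1 (0.0242) and in samples 3 and 4 alone, where it was 1.18 (0.00250). Interferon-stimulated genes, a list added after these values were seen, were also highest in CKO3 and CKO4 by their median. Over 10 measured genes, of which 3 were too dim to test, the median difference from the WT mean was 0.03, -0.10, 0.67 and 1.23 in CKO1 to CKO4, against 0.13, 0.15, -0.16 and 0.03 in WT1 to WT4. Of the 7 genes tested, Usp18 rose by 1.56 (adjusted p = 0.00936), with all CKO samples above all WT samples, and 6 did not pass, among them Ifit2 at -0.26 (0.460) and Irf7 at 0.09 (0.921). The part of interferon in the Eif2ak2 values was not tested. Eif2ak1, the haem-regulated kinase best known from red cell precursors, differed by -0.20 (adjusted p = 0.562) and by -0.06 without WT2, and Eif2ak3, which encodes the endoplasmic reticulum kinase PERK, by -0.09 (adjusted p = 0.704).

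The eIF3 complex, the large scaffold that links the ribosome, eIF4F and the initiator tRNA, was measured through 12 subunit genes, and none passed. Their median difference was 0.25, with 10 above 0 and 2 below, and by sample it was 0.29, 0.01, 0.26 and 0.21 in CKO1 to CKO4, against 0.04, -0.07, 0.09 and 0.06 in WT1 to WT4. CKO2 thus lay within the WT range. In Eif3e, Eif3i, Eif3j1 and Eif3l every CKO sample was above every WT sample, with differences of 0.26, 0.25, 0.29 and 0.33 and adjusted p from 0.0668 to 0.162. Of these, Eif3l came nearest, at 12.66, 12.62, 12.65 and 12.54 in CKO1 to CKO4, against 12.41, 12.11, 12.31 and 12.33 in WT1 to WT4. Tested further probes of Eif3i, Eif3j1 and Eif3l overlapped between groups, at 0.22 and 0.19 for Eif3i, -0.01 for Eif3j1 and 0.26 for Eif3l. Eif3b, a core scaffold subunit, was at 8.53, 7.80, 8.61 and 8.55 in CKO1 to CKO4, against 7.78, 7.32, 7.97 and 8.46 in WT1 to WT4. The sample numbered 2 was the lowest in each group, so the groups overlapped, although each CKO sample was above the WT sample of its number. Its difference of 0.48 (SE 0.24) did not pass (adjusted p = 0.305) but was called in the blocked fit (SE 0.12, adjusted p = 0.0355), and it was 0.30 without WT2 (adjusted p = 0.526). Eif3f, a subunit with a deubiquitinase-type domain, was at 14.06 ± 0.05 in CKO and 14.06 ± 0.19 in WT, a difference of 0.00 with a 95% interval from -0.24 to 0.24. Eif3a, the largest subunit, and Eif3c differed by 0.31 and 0.30 with overlapping groups (adjusted p = 0.225 and 0.598), and Eif3k and Eif3m by 0.10 and 0.07 (adjusted p = 0.716 and 0.845). Another Eif3a probe differed by -0.22 (limma adjusted p = 0.669). Eif3d, the subunit that can bind caps, and Eif3h differed by -0.11 and -0.18, and neither passed (adjusted p = 0.641 and 0.475).

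**Figure D3:**
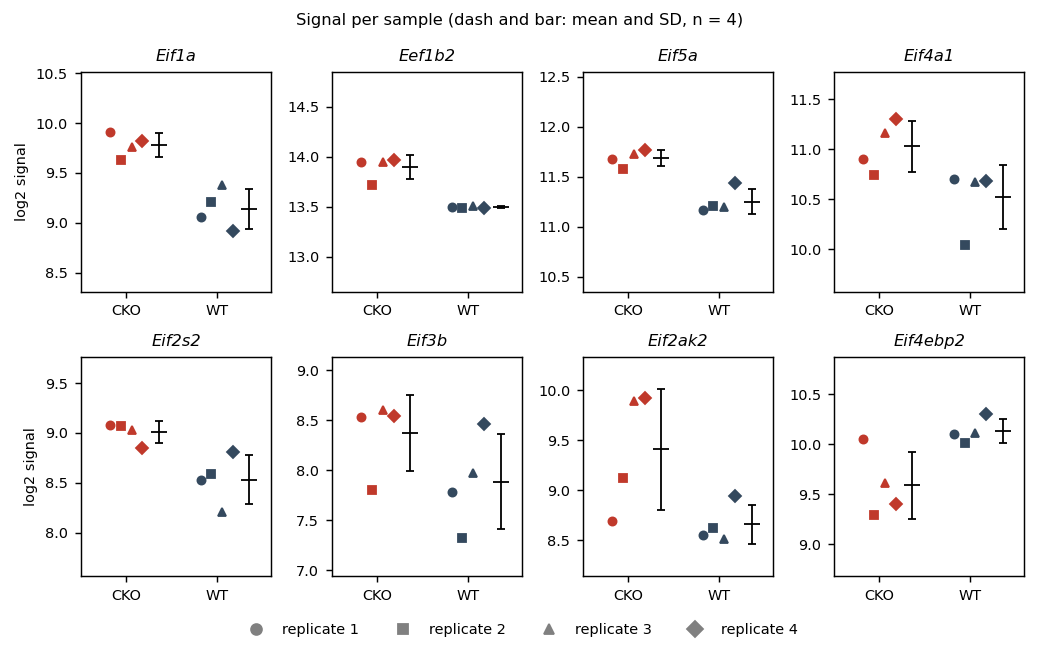
Log2 signal per sample of the 8 factors called with or without the replicate block; red is CKO, dark grey is WT, marker shapes give the replicate number, and the dash and bar give the mean and SD (n = 4). All panels span the same number of log2 units; CKO and WT do not overlap in Eif1a, Eef1b2, Eif5a, Eif4a1 and Eif2s2, and they overlap in Eif3b, Eif2ak2 and Eif4ebp2.

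In the eIF4F group the helicase Eif4a1 and the cap-binding protein Eif4e were the genes whose brightest probes separated, and none of 10 passed. The median of the group was 0.07, with 6 differences above 0 and 4 below. Eif4a1 unwinds the leader of mRNAs and was at 10.90, 10.75, 11.17 and 11.31 in CKO1 to CKO4, against 10.70, 10.04, 10.67 and 10.68 in WT1 to WT4. The groups did not overlap, and WT2 lay well below the other WT samples. The difference was 0.51 (SE 0.17, adjusted p = 0.123), with an adjusted p = 0.0195 under the replicate block. A further Eif4a1 probe was at 10.32, 10.38, 10.28 and 10.35 in CKO1 to CKO4, against 9.84, 9.75, 10.01 and 10.06 in WT1 to WT4, and passed as higher (0.42, SE 0.10, limma adjusted p = 0.0294). On the mean of both probes Eif4a1 passed too, at 0.46 (adjusted p = 0.0455).

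Eif4e itself was at 8.04, 8.06, 8.17 and 7.96 in CKO1 to CKO4, against 7.78, 7.85, 7.52 and 7.68 in WT1 to WT4. All CKO samples were above all WT samples, and the difference of 0.35 (SE 0.10) did not pass (adjusted p = 0.0652). Another Eif4e probe differed by 0.38 without passing (SE 0.30, limma adjusted p = 0.548), and its groups overlapped. Eif4e3, a divergent cap-binding relative, ran the other way, at 9.22, 8.87, 8.74 and 9.10 in CKO1 to CKO4, against 9.38, 9.15, 9.39 and 9.36 in WT1 to WT4. Its brightest probe did not pass (-0.34, SE 0.12, adjusted p = 0.140), while a further probe did, at 7.44 ± 0.10 in CKO and 7.91 ± 0.14 in WT, a fall by 0.47 log2 (adjusted p = 0.0217) with no overlap between groups. Eif4h, a helper of the helicase, was at 12.27 ± 0.11 in CKO and 12.18 ± 0.05 in WT, a difference of 0.10 (adjusted p = 0.622). Eif4b, another helper, differed by 0.31 and overlapped between groups (adjusted p = 0.428). Eif4g2 and Eif4g3 differed by -0.21 and -0.05 (adjusted p = 0.458 and 0.818). Another Eif4g2 probe differed by 0.20 (limma adjusted p = 0.559). Eif4e2, a cap-binding relative, differed by 0.13 (adjusted p = 0.683). Eif4a2, a close relative of Eif4a1, differed by -0.12 (adjusted p = 0.738), and Eif4a3, the helicase of the exon junction complex, by 0.04 (adjusted p = 0.902).

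Of the proteins that bind eIF4E, Eif4ebp2 was the factor with the largest negative difference. It encodes a repressor that mTORC1 releases from eIF4E by phosphorylation. Eif4ebp2 was at 10.05, 9.29, 9.61 and 9.40 in CKO1 to CKO4, against 10.10, 10.01, 10.11 and 10.30 in WT1 to WT4. CKO2, CKO3 and CKO4 lay below all WT samples, whereas CKO1 was within the WT range. The difference of -0.54 (SE 0.16) did not pass (limma adjusted p = 0.0719). It was called as lower in the blocked fit (adjusted p = 0.0389), without CKO1 (-0.70, 0.0110), without CKO1 and WT1 (-0.71, 0.0372) and in samples 3 and 4 alone (-0.70, 0.0137). Eif4ebp1, the other main repressor, differed by 0.20 (adjusted p = 0.557), Eif4ebp3 by 0.01 (0.967), and Eif4enif1, which carries eIF4E into the nucleus, by 0.25 (0.151).

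Among the factors numbered eIF5 and eIF6, Eif5a rose, and Eif5, Eif5a2 and Eif6 did not pass. Eif5a encodes the hypusine-bearing factor that helps ribosomes through difficult sequences and at termination. It was at 11.67, 11.58, 11.73 and 11.77 in CKO1 to CKO4, against 11.17, 11.20, 11.20 and 11.43 in WT1 to WT4. Every CKO sample was above every WT sample, and WT4 was the highest WT value. The means were 11.69 ± 0.08 in CKO and 11.25 ± 0.12 in WT, a difference of 0.44 (SE 0.10) or 1.35-fold with a limma adjusted p = 0.0226. The call was lost without CKO1, CKO3, CKO4, WT1 or WT3 (adjusted p = 0.0501 to 0.0833). A further Eif5a probe differed by 0.45 without passing (SE 0.48, adjusted p = 0.667), with the samples numbered 2 the lowest of each group, at 8.43 in CKO2 and 8.33 in WT2. On the mean of both probes the gene did not pass (adjusted p = 0.397). Eif5, the partner of eIF2 in start codon recognition, differed by -0.07 (adjusted p = 0.886), Eif6, which keeps the large ribosomal subunit free, by -0.07 (0.752) and Eif5a2, a rarer form of Eif5a, by -0.13 (0.480).

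In the eEF1 group Eef1b2 rose and 6 of 7 differences were above 0, with a median of 0.33. The group holds subunits of the complex that brings aminoacyl-tRNA to the ribosome, and also Eef1e1 and methyltransferases of eEF1A. The subunits tested were Eef1b2, Eef1g and Eef1d, at 0.40, 0.35 and 0.09. Eef1b2 encodes the beta subunit of the exchange factor that recharges eEF1A. It was at 13.95, 13.72, 13.95 and 13.97 in CKO1 to CKO4, against 13.50, 13.49, 13.51 and 13.49 in WT1 to WT4. The WT values were nearly equal, and CKO2, the lowest CKO value, was still above them. The means were 13.90 ± 0.12 in CKO and 13.50 ± 0.01 in WT, a difference of 0.40 (SE 0.09) or 1.32-fold with a limma adjusted p = 0.0242. The call was lost without CKO1, CKO3, CKO4, WT1, WT3 or WT4 (adjusted p = 0.0545 to 0.0912). A further Eef1b2 probe differed by 0.49 without passing (SE 0.40, adjusted p = 0.565), with CKO2 at 10.13 and WT2 at 9.91, the lowest of each group. On the mean of both probes the gene did not pass (adjusted p = 0.303).

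Eef1g, the gamma subunit that anchors this exchange factor, was at 13.26, 13.61, 13.71 and 13.45 in CKO1 to CKO4, against 13.07, 13.16, 13.07 and 13.32 in WT1 to WT4. CKO1 lay below WT4, and the difference of 0.35 (SE 0.12) did not pass (adjusted p = 0.113). Eef1d, the delta subunit, differed by 0.09 (adjusted p = 0.712) and Eef1e1, a component of the tRNA synthetase complex, by 0.29 (adjusted p = 0.193). Of the methyltransferases of eEF1A, Eef1akmt4 and Eef1aknmt differed by 0.33 and 0.35 and Eef1akmt1 by -0.12, and none passed (adjusted p = 0.0981, 0.181 and 0.814).

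Eef2, the translocase that moves the ribosome along the mRNA, did not pass, and its values followed the sample number more than the genotype. It was at 13.84, 13.11, 13.60 and 13.61 in CKO1 to CKO4, against 13.79, 12.92, 13.54 and 13.61 in WT1 to WT4. The samples with the same number were close to each other, and those numbered 2 were the lowest. The difference was 0.08 with a 95% interval from -0.38 to 0.53 (limma adjusted p = 0.892). In 10 of the 50 factors, or 20%, the sample numbered 2 was the lowest, or tied for the lowest, in both groups, against 12.6% of all genes counted in the same way. These were Eef2, Eef1b2, Eef1e1, Eif3b, Eif3c, Eif3i, Eif3j1, Eif3k, Eif4a1 and Eif4ebp2, and in Eef1b2 WT2 was tied with WT4. CKO2 and WT2 were also the samples with the lowest 18S signal, and the part of RNA quality in these values was not tested. Without CKO2 and WT2 the same 3 genes were called, and the family median was 0.12.

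**Figure D4:**
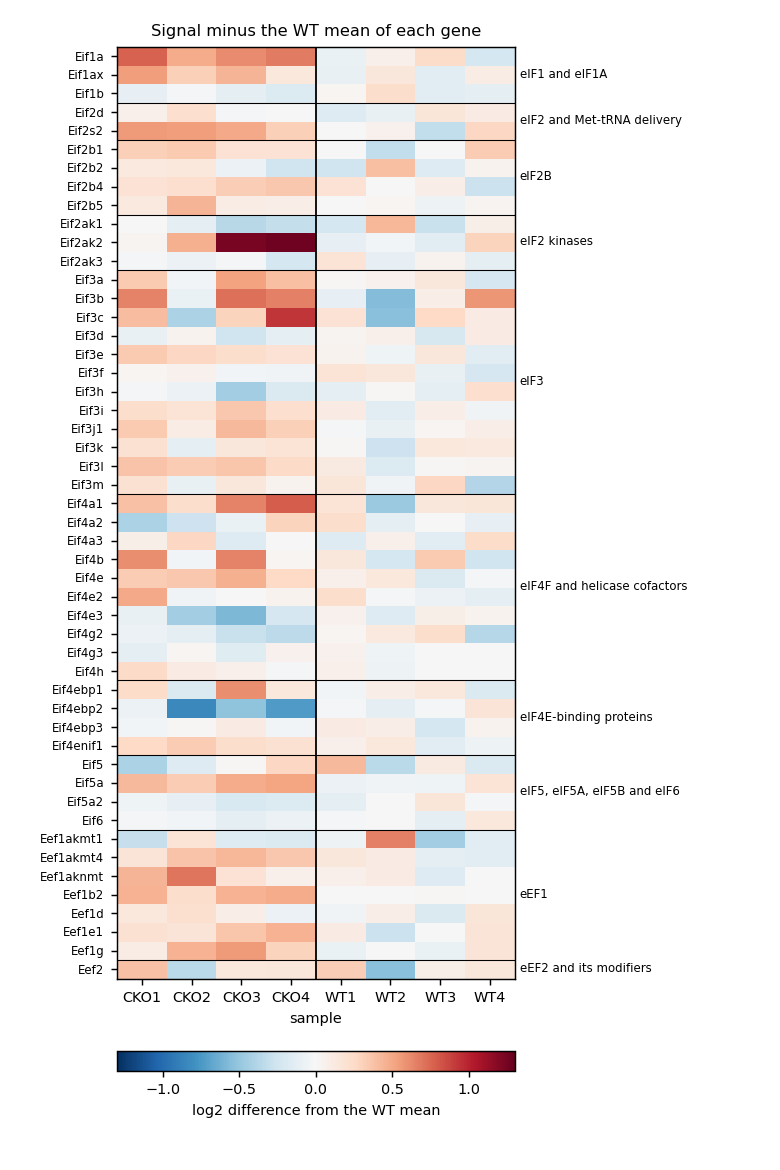
Difference of each sample from the WT mean of the gene (colour, log2) for the 50 factors tested, with CKO samples left of WT samples and lines between complexes. Eif2ak2 is high in CKO3 and CKO4, Eif3c and Eef2 are low in CKO2 and WT2, and Eif4ebp2 is low in CKO2, CKO3 and CKO4.

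Further probes gave a second look at the same transcripts. Of 28 further probes, 21 were bright enough to be tested, for 19 genes, and 17 of the 21 had the sign of the brightest probe of their gene. The Eif4a1 probe passed as higher and the Eif4e3 probe as lower, and 0 of the 2 further probes of the called genes passed by limma, those of Eif5a and Eef1b2 having unadjusted p of 0.362 and 0.247. Eif1a had a single probe.

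Genes that work with the factors showed a few larger differences. Of 8 poly(A)-binding and cap regulators tested, Pabpc4 rose, none fell and 7 did not pass (median 0.08). Pabpc4, a cytoplasmic poly(A)-binding protein known as inducible in activated T cells, was at 10.88, 10.56, 11.10 and 10.79 in CKO1 to CKO4, against 9.995, 9.77, 9.85 and 10.04 in WT1 to WT4. All CKO samples were clear of the WT samples, with a difference of 0.92 or 1.89-fold (SE 0.12, limma adjusted p = 0.00265), but on the mean of its probes it was 0.38 and did not pass (adjusted p = 0.0551). Among hypusine and polyamine genes, of which 5 were tested, Srm rose and 4 did not pass (median 0.19). Srm makes spermidine, the precursor of the hypusine on eIF5A, and was at 7.76, 8.12, 8.04 and 7.95 in CKO1 to CKO4, against 6.97, 7.40, 6.70 and 7.15 in WT1 to WT4. The groups did not overlap, with a difference of 0.92 or 1.89-fold (SE 0.15, adjusted p = 0.00621).

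Targets of the integrated stress response, which follows phosphorylation of eIF2, did not move together. Of 8 tested, Asns rose, Ddit3 fell and 6 did not pass, with a median of -0.13. Asns, asparagine synthetase, was at 9.03, 8.78, 9.42 and 9.28 in CKO1 to CKO4, against 7.80, 8.27, 8.12 and 8.34 in WT1 to WT4, a difference of 1.00 (SE 0.16, adjusted p = 0.00621). Ddit3, which encodes the stress factor CHOP, was at 7.19, 7.49, 7.20 and 7.23 in CKO1 to CKO4, against 7.80, 8.04, 7.61 and 7.72 in WT1 to WT4, a difference of -0.51 (SE 0.12, adjusted p = 0.0266). Neither gene overlapped between groups, and the Ddit3 call was lost without CKO1, CKO3, CKO4, WT1 or WT2 (adjusted p = 0.0503 to 0.0953). Of 16 genes of aminoacyl-tRNA synthetases and their scaffold, Nars, which charges asparagine tRNA, rose by 0.46 (SE 0.10, adjusted p = 0.0247) and 15 did not pass (median 0.10). The Nars call was lost without CKO1, CKO3, WT1 or WT3 (adjusted p = 0.0640 to 0.0921).

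No gene of the other 4 lists passed by limma. Of 10 mTORC1 genes, with a median of 0.02, Ddit4, an inhibitor of the pathway, came nearest at 10.78, 10.27, 11.65 and 10.68 in CKO1 to CKO4, against 9.75, 8.64, 9.41 and 10.53 in WT1 to WT4 (1.26, SE 0.38, adjusted p = 0.0821). WT4 overlapped the CKO range, and the difference was called in the blocked fit (adjusted p = 0.0232) and without WT4 (1.58, 0.0319). Of 5 termination and recycling genes, with a median of 0.29, Mcts1, a reinitiation factor, came nearest at 0.29 (adjusted p = 0.0838). Of 10 mitochondrial translation factors, with a median of 0.10, Tufm, the mitochondrial counterpart of eEF1A, came nearest at 0.34 (adjusted p = 0.0654). Of 5 genes that make diphthamide, the modified residue of eEF2, with a median of 0.15, Dph5 came nearest at 0.17 (adjusted p = 0.429).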

How the data were processed

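Expression was measured on 1-colour arrays with biotinylated cRNA from an Illumina amplification kit, according to the label protocol. Per the file headers, the deposited table covers 8 arrays and 24048 probes as log2 values made by the authors. Not given in the sources used here are the scanner, the background correction and the normalization. The sorted columns nearly coincide (largest gap between matched quantiles 0.024, array medians 6.15), as after normalization between arrays, and no further normalization was applied. Between 0.952% and 1.31% of values per array were missing. Signals near the lowest value, 5.33, may understate the differences of dim probes. The number of arrays limits the precision.

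Names were taken from the platform annotation, with a single symbol for 19397 probes; the name of the 18S control probe was dropped. Probes whose 8-array mean exceeded 6.12, the median over probes, entered the test: 11991 probes of 8095 genes, with the brightest probe standing for its gene. The genotypes were fitted in R 4.3.3 by limma 3.58.1 (lmFit, eBayes), with two-sided p-values adjusted over every tested probe by Benjamini-Hochberg and a threshold of 0.05. Differences are CKO minus WT in log2, SEs are moderated and intervals cover 95%. The fit was tested on simulated data. Motifs are exact letter matches.

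Same-numbered CKO and WT samples deviated together from their group means, with correlations of 0.318, 0.468, 0.178 and 0.224 across probes, all above the limit of 0.1 for treating numbers as pairs, although CKO3 with WT4 and CKO4 with WT3 reached 0.263 and 0.254. The pairing comes from the replicate numbers in the labels, and the Y-linked gene Eif2s3y was bright only in CKO1 and WT1, so the number is not separate from that difference. Genes named with values were every factor past the threshold, the factor with the largest difference and the brightest factor of each complex, the pathway genes past the threshold or nearest to it, and further factors given so that all are accounted for, chosen after their values were seen. The factors, lists and tests were chosen with earlier results of these data known. Alternatives were the replicate block, filters, background scale, normalization, probe choice, limma settings and samples left out.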

Additional observations from a re-analysis of the deposited data

Results flagged for a closer look

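In groups of 4 samples, values that stood apart from the other 3 were sought in 127 groups, where chance flags about 1 in 20. They were found for 9 values. CKO2 was low in Eif3b (7.80, nearest 8.53), Eif3k (12.43, nearest 12.70) and Eef1b2 (13.72, nearest 13.95) and high in Eif2b5 (10.35, nearest 10.04) and Ddit3 (7.49, nearest 7.23). WT2 was low in Eif4a1 (10.04, nearest 10.67) and Eif4e3 (9.15, nearest 9.36). WT4 was high in Eif5a (11.43, nearest 11.20), and CKO1 was high in Eif4e2, a relative of the cap-binding protein, at 12.19 with the nearest sample at 11.73.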

How the results depend on the processing

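The count of factors called was 3, and within 1.5 times of it without the filter on dim probes, with a stricter filter, with 20 subtracted from the linear value, after centring or repeated quantile normalization, on probe means, with trend and robust settings, with the unmoderated model and without CKO2 and WT2. It was 8 with the replicate block, against 12.6% of all genes called, 5 with 50 added to the linear value (8.68%) and 15 with array weights (16%). It was 6 in samples 3 and 4 alone (11.4% of all genes) and 0 in samples 1 and 2 alone (0.235%, limma, 5 factors at an unadjusted p under 0.05). Without CKO1 and WT1 it was 1, Eif4ebp2 as lower, against 3.43% of all genes. That alternative was added after seeing the data because the Y-linked gene Eif2s3y was bright in those samples alone. Eif2s3y was at 10.92 in CKO1 and 10.51 in WT1, against 5.73 to 6.52 in the other 6 samples. The part of sex in the results was not tested. With 1 sample left out the count of factors called was 1 to 4, against 3.59% to 9.38% of all genes. The count over all genes was 629, and 1017 with the replicate block. With the stricter filter 4 of 46 factors were called, against 11.9% of all genes. In the other alternatives listed as within 1.5 times, the share of all genes was 4.14% to 10.1%. On probe means 3 factors were called too, but these were Eif1a, Eif4a1 and Eif4e3, the last lower. The family median of 0.16 stayed above 0 in every alternative run: it was 0.12 without the filter, 0.11 with the stricter filter, 0.11 on probe means, 0.12 with array weights and 0.12 without CKO2 and WT2, and 0.12 to 0.20 with 1 sample left out. For 23 genes named by rule, 529 values under 23 alternatives gave 454 that kept direction and call, 40 that lost the call, 27 that gained it and 8 with the other sign. The last were Eef2, at -0.11 to 0.22 with 1 sample left out, and Eif3f, at -0.00087 after repeated quantile normalization, -0.12 in samples 1 and 2 alone and -0.072 to 0.059 with 1 sample left out. Besides the calls printed with it, the replicate block changed none among these genes. In samples 1 and 2 alone and 3 and 4 alone there are fewer samples; otherwise the cause of these changes was not tested. Without CKO1, 3 factors were called too, Eif1a, Eif2ak2 and Eif4ebp2. The 4 arrays a group and dim signals near the lowest value limit what could be called.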
